A study of Mus musculus with 18 samples.

Results

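The comparison described here set 3 RNA-seq libraries of mouse embryonic fibroblasts (MEFs) that lacked both ribosomal S6 kinases and carried oncogenic RAS (DKO RAS) against 3 libraries of wild-type MEFs with an empty vector (WT EV). They were chosen by their labels and are 6 of the 18 libraries of the study. It asks which changes of senescence, extracellular matrix, secretion and the cell cycle were reached from normal fibroblasts after RAS in cells with neither kinase. DKO RAS cells were S6K1-/-;S6K2-/- MEFs transduced with a retroviral vector for HRAS G12V, a form of the small GTPase that stays active. WT EV cells were S6K1+/+;S6K2+/+ MEFs transduced with the same vector without RAS. All groups were primary cultures from C57BL/6 embryos, grown from what was left after head and viscera were removed, transduced once and selected with puromycin. Each group held 3 cultures from different embryos. According to the methods, the WT cells of this series came from WT mothers of earlier breeding stages and were not littermates of the DKO cells. No DKO culture with empty vector was analysed here, so each difference is the net of RAS, of the loss of both kinases and of breeding, which cannot be told apart. For reference the report also uses the 3 WT RAS libraries of the same series as well as 3 S6K1 KO RAS and 3 WT EV libraries of a separate series of littermates that lacked S6K1 alone.

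S6K1 and S6K2 are kinases downstream of mTORC1, the nutrient and growth factor sensor. They phosphorylate ribosomal protein S6 and other factors that act on translation and cell growth. Active RAS signals through RAF, MEK and ERK, and in primary fibroblasts sustained signalling ends in senescence, a stable arrest held by the inhibitors p16 and p15 and by p53. Senescent fibroblasts remodel their matrix and release proteases, cytokines, chemokines and growth factors, together called the senescence-associated secretory phenotype.

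RNA was measured as read counts per gene. Total counts were 10679435 to 11253938 in the WT EV libraries and 9952697 to 10927622 in the DKO RAS libraries, and mitochondrial genes took 2.87% to 4.66% of them. Levels are given as CPM, read counts scaled to the size of each library, which scale with transcript length and so compare a gene between libraries and not genes with each other. A gene is said to have risen or fallen, or is called, where the adjusted p of the edgeR quasi-likelihood test was under 0.05. Fold changes are log2 values of DKO RAS over WT EV with their standard error (SE). The first principal component of the 9 libraries of the series held 63.6% of the variance and separated WT EV from all RAS libraries. The second held 13.8% and separated replicate 1 of every group from replicates 2 and 3. All 15 fibroblast markers listed were above 1 CPM in every library. Their summed level was 44997 to 52659 CPM in WT EV and 24485 to 27630 CPM in DKO RAS, and the members that fell were collagens, Pdgfrb and Twist1. As these are bulk libraries, fewer cells of a type and less RNA per cell cannot be told apart.

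Both targeted genes were low in the libraries labelled DKO. Rps6kb1, which encodes S6K1 (ENSMUSG00000020516.15, chr11:86498869-86544885), stood at 83.3, 91.1 and 89.0 CPM in WT EV replicates 1 to 3 and at 34.5, 39.7 and 38.2 CPM in DKO RAS. Its log2 fold change was -1.23 ± 0.11 (adjusted p = 1.33e-04), so 0.427 of the WT EV level remained as counted RNA. Rps6kb2, which encodes S6K2 (ENSMUSG00000024830.17, chr19:4156792-4163383), stood at 24.4, 26.3 and 30.6 CPM in WT EV and at 2.68, 3.04 and 2.80 CPM in DKO RAS, a log2 fold change of -3.25 ± 0.17 (adjusted p = 2.28e-05). Counts of whole genes do not show which exons remained or whether protein was made. In WT RAS the levels were 75.5 to 83.7 CPM for Rps6kb1 and 24.1 to 28.9 CPM for Rps6kb2. Hras (chr7:141189934-141194019) was at 59.6, 51.0 and 66.1 CPM in WT EV and at 122, 112 and 90.3 CPM in DKO RAS, and it rose by 0.88 ± 0.15 (adjusted p = 0.00260). Reads from the vector and from the mouse gene cannot be told apart in these counts.

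Of 13881 genes tested, 1812 (13.1%) rose and 1753 (12.6%) fell, 25.7% in all. The median log2 fold change of all tested genes was -0.02. The libraries of both groups did not overlap for 6034 genes (43.5%), 2980 with DKO RAS higher (21.5%) and 3054 with DKO RAS lower (22%). The called genes changed by more than 1 on the log2 scale in 1005 cases upwards and in 964 downwards. In WT RAS against WT EV, 26.3% were called, 1880 higher (13.5%) and 1766 lower (12.7%). The labels of these groups share WT numbers, which that fit did not use. With the replicate number as a further term 3980 genes were called. That comparison shares its WT EV libraries with the present one, so its values are set beside those of DKO RAS below and no overlap is counted. The count for DKO RAS was 2296 without WT EV replicate 2, 2305 without DKO RAS replicate 1 and 1999 without DKO RAS replicate 2. Genes whose own call was lost without one of these libraries are named in the paragraphs that follow.

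**Figure D1:**
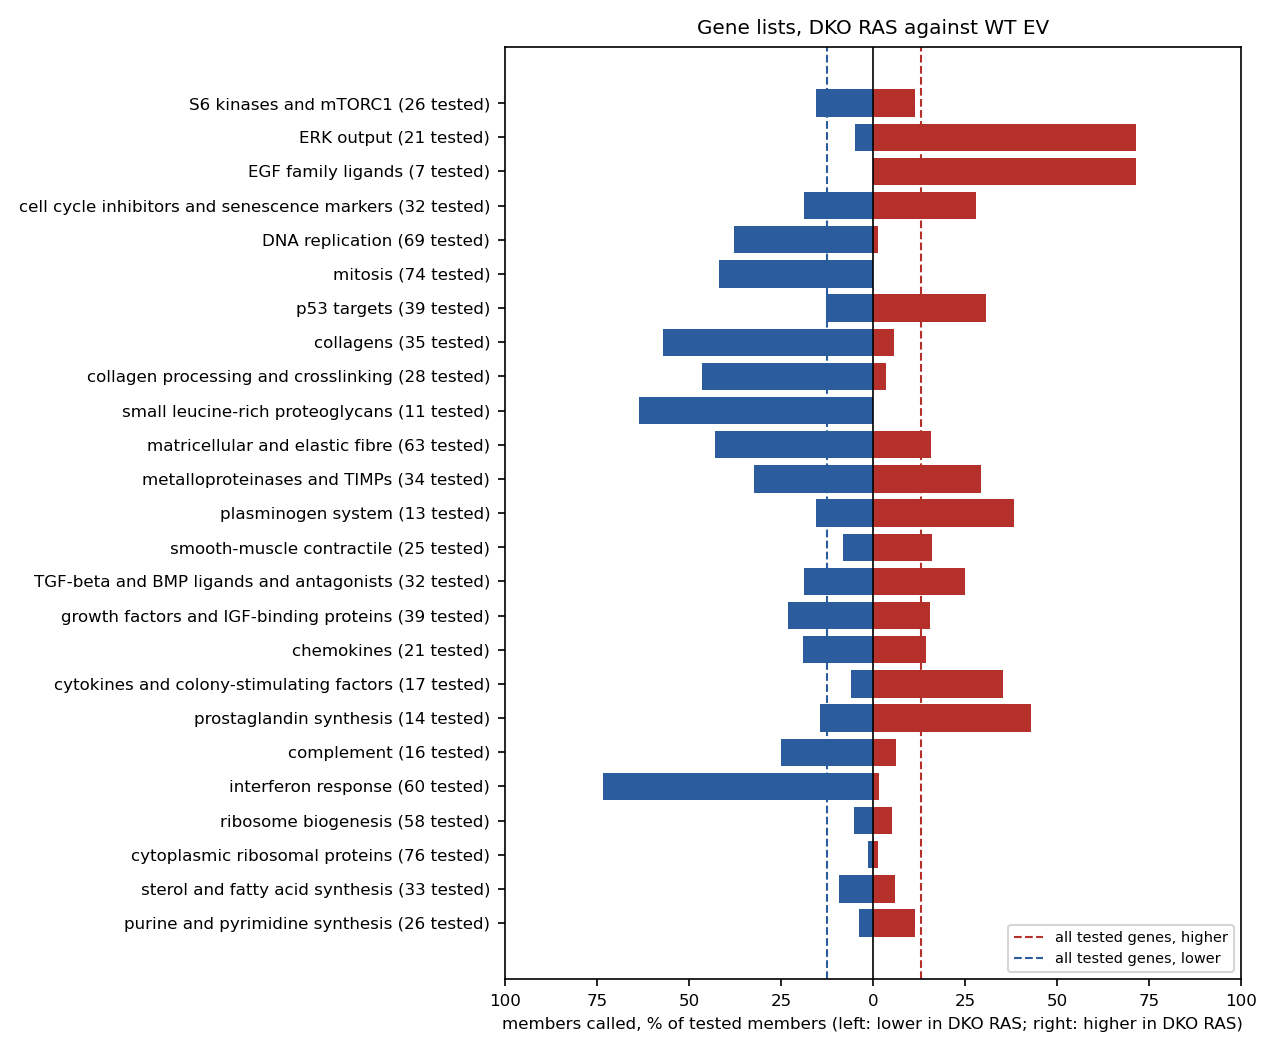
Bars show the percentage of tested members of each gene list that were called in DKO RAS against WT EV, to the right for genes higher in DKO RAS and to the left for genes lower. Dashed lines mark the percentages over all tested genes, 13.1% higher and 12.6% lower. ERK output genes and EGF family ligands reached furthest to the right, and interferon-response genes and small leucine-rich proteoglycans furthest to the left.

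The transcriptional output of ERK was high in cells without either kinase. Of 21 tested genes of this list, 15 rose and 1 fell, in sum 76.2% against 25.7% of all genes. Their median log2 fold change was 1.45. Dusp6, a phosphatase that removes phosphate from ERK (ENSMUSG00000019960.8, chr10:99263231-99267489), was at 19.9, 21.2 and 26.1 CPM in WT EV and at 219, 240 and 187 CPM in DKO RAS, a log2 fold change of 3.26 ± 0.18 (adjusted p = 2.28e-05). The lowest DKO RAS library was thus far above the highest WT EV library. The related phosphatase genes Dusp5 and Dusp4 rose by 3.19 ± 0.34 and 2.96 ± 0.35, and Spry4, an inhibitor of receptor tyrosine kinase signalling, rose by 2.91 ± 0.29. Among transcription factors, Fosl1, an AP-1 subunit, rose by 2.52 ± 0.23, and the ETS factors Etv4 and Etv1 rose by 2.30 ± 0.27 and 2.17 ± 0.29. Myc was at 49.9, 18.7 and 25.4 CPM in WT EV and at 96.6, 71.0 and 70.2 CPM in DKO RAS (1.34 ± 0.31, adjusted p = 0.0133). Ccnd1, the G1 cyclin D1, rose from 304, 480 and 434 CPM to 1465, 895 and 965 CPM (1.45 ± 0.23, adjusted p = 0.00228). The immediate-early factor Egr2 was the member that fell (-2.37 ± 0.71), and this call was lost without any of 5 libraries, both groups included. In WT RAS 15 members rose and 0 fell, with a median of 1.25.

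Ligands of the EGF receptor family, which feed back on the same pathway, rose in 5 of 7 tested cases and fell in 0. In sum 71.4% were called, against 25.7% of all genes. Of the ligands that rose, Areg met the count minimum for testing only through the RAS libraries. Areg, encoding amphiregulin (ENSMUSG00000029378.5, chr5:91139599-91148432), was at 0.699, 0.619 and 0.787 CPM in WT EV and at 147, 139 and 77.7 CPM in DKO RAS. Its log2 fold change of 7.41 ± 0.31 (adjusted p = 5.79e-06) corresponded to 173 times the mean level of WT EV. Hbegf, encoding heparin-binding EGF, rose by 2.47 ± 0.41, Ereg (epiregulin) by 1.72 ± 0.27, Nrg1 (neuregulin 1) by 1.23 ± 0.25 and Btc (betacellulin) by 1.16 ± 0.33. The call of Btc was lost without WT EV replicate 1 or 2 or without any DKO RAS library. Tgfa was at 5.24, 6.90 and 2.53 CPM in WT EV and 5.45, 12.6 and 8.75 CPM in DKO RAS, and the groups overlapped (adjusted p = 0.200).

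**Figure D2:**
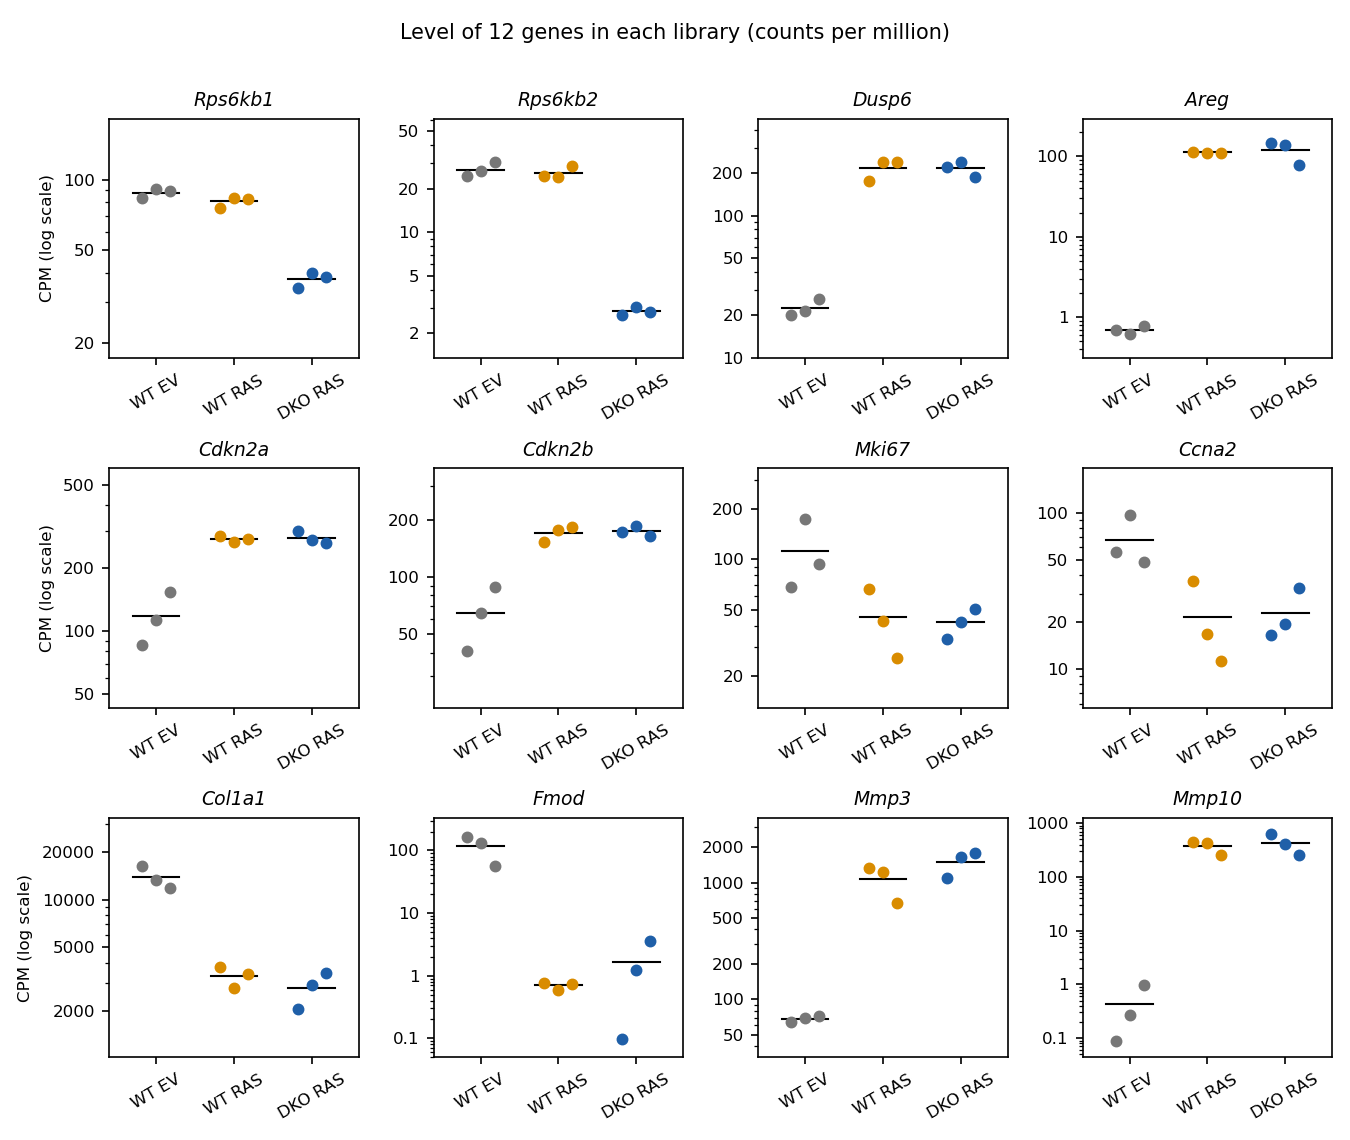
Each panel gives 1 gene, with its level in CPM on a log axis in the 3 WT EV, 3 WT RAS and 3 DKO RAS libraries (points, replicates 1 to 3 from left to right) and the mean of each group (bar). DKO RAS points of Rps6kb1 and Rps6kb2 sit below both WT groups, while for the other 10 genes they sit on the WT RAS side of WT EV, as with Areg at 77.7 to 147 CPM against 0.619 to 0.787 CPM.

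The inhibitor genes Cdkn2a and Cdkn2b were high in the absence of both kinases. Of other inhibitor genes, described below, Cdkn1b and Cdkn2c fell and Cdkn1a was not called. Cdkn2a, the locus of p16 and p19Arf (ENSMUSG00000044303.6, chr4:89274473-89294619), stood at 86.2, 113 and 154 CPM in WT EV and at 299, 273 and 263 CPM in DKO RAS. Its log2 fold change was 1.24 ± 0.19 (adjusted p = 0.00171), and the counts do not separate the transcripts for the 2 proteins. The neighbouring Cdkn2b, encoding p15 (ENSMUSG00000073802.5, chr4:89306289-89311032), was at 41.0, 64.7 and 88.5 CPM in WT EV and at 172, 186 and 163 CPM in DKO RAS (1.42 ± 0.23, adjusted p = 0.00244). The 3 DKO RAS libraries of both genes lay close together and above every WT EV library. In WT RAS the log2 fold changes were 1.23 for Cdkn2a and 1.39 for Cdkn2b.

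Over the list of 32 tested inhibitors and senescence markers, 9 rose and 6 fell, in sum 46.9% against 25.7% of all genes. The median was -0.10. In WT RAS 10 rose and 6 fell. Cdkn1a, encoding p21, did not pass the test and stood at 308, 508 and 708 CPM in WT EV and at 683, 711 and 721 CPM in DKO RAS (0.47 ± 0.25, adjusted p = 0.193), so that WT EV replicate 3 lay among the DKO RAS libraries. Rb1, the retinoblastoma protein gene, rose by 1.27 ± 0.21. The chromatin proteins of senescence-associated heterochromatin foci gave the largest increase of the list, with Hmga1 at 16.9, 22.5 and 17.9 CPM in WT EV and 253, 218 and 170 CPM in DKO RAS (3.48 ± 0.20, adjusted p = 2.28e-05), and Hmga2 rose by 1.95 ± 0.27. Plaur, the urokinase receptor gene and a surface marker of senescent cells, rose by 2.06 ± 0.25. Lmnb1, the lamin whose loss marks senescence, was at 28.8, 39.0 and 26.5 CPM in WT EV and at 18, 16 and 23.6 CPM in DKO RAS without passing the test (-0.71 ± 0.25, adjusted p = 0.0670). Hmgb2, a chromatin protein lost early in senescence, fell by 1.48 on the log2 scale (SE 0.46, adjusted p = 0.0419). Other members that fell were Cdkn1b (p27, -1.17 ± 0.27), Cdkn2c (p18, -1.51 ± 0.46), Rbl1 (p107, -0.95 ± 0.24), the Polycomb gene Bmi1 (-0.77 ± 0.19) and Igfbp5 (-3.23 ± 0.44). The libraries of Cdkn2c overlapped. The calls of Hmgb2, Cdkn2c and Rbl1 were lost without WT EV replicate 2 or DKO RAS replicate 2, among others. That of Cdkn1b was lost without DKO RAS replicate 1 and that of Bmi1 without DKO RAS replicate 2 or 3. The number that fell was 3 without WT EV replicate 2 or DKO RAS replicate 1, and 2 without DKO RAS replicate 2.

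Genes of cell division were low in DKO RAS. Of 69 tested genes of DNA replication, 26 fell and 1 rose (median -0.66), and of 74 tested genes of mitosis, 31 fell and 0 rose (median -1.14). In WT RAS 27 and 26 of them fell. The shares called in DKO RAS were 39.1% and 41.9%, against 25.7% of all genes. Mki67, the proliferation marker Ki-67 (ENSMUSG00000031004.8, chr7:135689784-135716450), was at 67.9, 176 and 93.4 CPM in WT EV and at 33.3, 42.1 and 50.3 CPM in DKO RAS (-1.42 ± 0.39, adjusted p = 0.0257). Ccna2, encoding the S-phase cyclin A2, was at 56.3, 95.9 and 48.5 CPM in WT EV and at 16.5, 19.4 and 32.8 CPM in DKO RAS (-1.54 ± 0.43, adjusted p = 0.0277). For both genes every DKO RAS library lay below every WT EV library, and WT EV replicate 2 was the highest. Helicase and polymerase genes fell, among them Mcm3 (-1.45 ± 0.26), Mcm5 (-1.56 ± 0.35) and the primase gene Prim1 (-1.64 ± 0.43). Rrm1, a ribonucleotide reductase subunit, was at -1.06 ± 0.28 and Pcna, the sliding clamp, at -0.81 ± 0.23, both called lower. The mitotic spindle genes Ckap2l (-1.77 ± 0.47), Aspm (-1.62 ± 0.40) and Kif20a (-1.55 ± 0.40) fell most in their list, and Ccnb1 (cyclin B1) and Cdk1, the mitotic kinase pair, were at -1.34 ± 0.42 and -0.94 ± 0.31, both called. E2f8, an atypical E2F that represses replication genes, was the member that rose, from 7.86, 13.3 and 8.30 CPM to 81.9, 81.1 and 86.5 CPM (3.08 ± 0.21, adjusted p = 4.28e-05).

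The counts of called cell cycle genes depended on a few libraries. Replication genes called lower numbered 5 without WT EV replicate 2, 8 without DKO RAS replicate 1 and 4 without DKO RAS replicate 2. For mitosis the numbers were 1 without WT EV replicate 2, 2 without DKO RAS replicate 1, 1 without DKO RAS replicate 2, and 15 without WT RAS replicate 2. They were 51 when WT EV replicate 1 was left out and 48 when WT RAS replicate 1 was. The calls of Mki67, Ccna2, Prim1, Rrm1, Pcna, Ckap2l, Aspm, Kif20a, Ccnb1 and Cdk1 were among those lost without WT EV replicate 2, DKO RAS replicate 1 or DKO RAS replicate 2. Those of Mcm3, Mcm5 and E2f8 held without each of them. DKO RAS libraries lay below all WT EV libraries for 41 of the 69 replication genes and 49 of the 74 mitosis genes, against 22% of all tested genes.

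Promoters of these genes were read from the RefSeq table (GRCm38.p6), which gives 250 bases before to 50 after each gene's start. A CHR element (TTTGAA or its reverse complement TTCAAA) was present in 15 of 25 mitosis genes that fell and have a promoter in the table (60%), against 20.2% of all 27025 genes with a promoter and 14.2% of tested genes. An E2F site, searched on both strands as TTTCCCGC, TTTGGCGC, TTTCGCGC or TTTGCCGC, was present in 9 of 22 replication genes that fell (40.9%), against 2.6% of all genes with a promoter, 4.64% of tested genes and 5.26% of those that fell. For the CHR element the share of genes that fell was 17.1%. Tested members as a whole held these motifs about as often as the members that fell, at 64.5% and 42.9%. The following 4 promoters show where the letters stand, with the CHR element in capitals for the mitosis genes Ckap2l and Cdk1 and the E2F site in capitals for the replication genes Mcm5 and Mcm3.
Ckap2l, chr2:129297163-129297462, minus strand: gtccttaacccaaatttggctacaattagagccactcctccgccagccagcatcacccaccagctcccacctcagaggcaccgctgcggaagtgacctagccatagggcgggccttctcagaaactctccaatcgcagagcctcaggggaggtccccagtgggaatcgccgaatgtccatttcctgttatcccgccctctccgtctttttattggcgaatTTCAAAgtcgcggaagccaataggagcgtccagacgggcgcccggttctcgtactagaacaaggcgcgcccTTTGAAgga
Cdk1, chr10:69352863-69353162, minus strand: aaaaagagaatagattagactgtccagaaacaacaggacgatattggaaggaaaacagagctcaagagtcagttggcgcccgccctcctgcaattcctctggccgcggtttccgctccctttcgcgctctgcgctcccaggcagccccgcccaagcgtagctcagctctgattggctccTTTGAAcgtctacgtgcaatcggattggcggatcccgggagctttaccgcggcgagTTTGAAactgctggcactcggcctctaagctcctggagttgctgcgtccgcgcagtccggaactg
Mcm5, chr8:75109259-75109558, plus strand: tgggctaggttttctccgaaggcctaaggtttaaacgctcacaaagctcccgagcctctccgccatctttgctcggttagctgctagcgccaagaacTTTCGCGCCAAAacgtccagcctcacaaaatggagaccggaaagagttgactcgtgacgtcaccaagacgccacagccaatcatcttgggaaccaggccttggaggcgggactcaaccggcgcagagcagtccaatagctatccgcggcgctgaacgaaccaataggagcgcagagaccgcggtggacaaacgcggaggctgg
Mcm3, chr1:20820263-20820562, minus strand: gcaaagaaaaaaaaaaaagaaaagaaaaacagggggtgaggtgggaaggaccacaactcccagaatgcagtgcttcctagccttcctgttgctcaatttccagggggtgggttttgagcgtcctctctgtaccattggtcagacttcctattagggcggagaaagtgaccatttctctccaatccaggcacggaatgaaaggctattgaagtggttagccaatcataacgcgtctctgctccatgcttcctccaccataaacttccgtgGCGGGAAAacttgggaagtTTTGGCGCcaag
Each holds 2 sites, and in Mcm5 both overlap. A match describes the letters in the window and is not evidence of binding.

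Targets of p53 rose more often than they fell. Of 39 tested members 12 rose and 5 fell, against 13.1% and 12.6% of all genes, and the share that fell was near that of all genes. The median was 0.52, and in WT RAS 11 members rose and 3 fell. Mdm2, the ubiquitin ligase that limits p53, was at 110, 153 and 283 CPM in WT EV and at 705, 694 and 590 CPM in DKO RAS (1.86 ± 0.31, adjusted p = 0.00266). All 3 DKO RAS libraries exceeded the highest WT EV library. Plk3, a stress kinase gene, rose by 2.46 ± 0.23, Epha2, an ephrin receptor gene that also responds to ERK, by 2.09 ± 0.26, and Perp, a p53 effector gene, by 1.85. Of apoptosis genes, Pmaip1 (NOXA) rose by 1.81 ± 0.51 and Bax by 0.39 ± 0.13, while Bbc3 (PUMA) fell (-0.49, adjusted p = 0.0484). Ccng1 (cyclin G1) rose by 1.13 ± 0.33. The death receptor gene Fas (-1.26 ± 0.32), Sesn1 (-1.01 ± 0.25), the peptide transporter gene Tap1 (-0.92 ± 0.22) and Ddb2 (-0.72) fell. Phlda3 (-0.01), Zmat3 (0.02) and Trp53inp1 (-0.09) were not called. The calls of Pmaip1, Bax, Ccng1, Fas, Sesn1 and Tap1 were lost without DKO RAS replicate 1 or 2. The number that rose was 5 without WT EV replicate 2, 6 without DKO RAS replicate 1 or 2, and 24 without WT EV replicate 3. The number that fell was 1 without WT EV replicate 2, 3 without WT RAS replicate 2 or 3, and 0 without DKO RAS replicate 1 or 2.

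The matrix that fibroblasts lay down was low in DKO RAS. Of 35 tested collagen genes 20 fell and 2 rose (median -0.99), the same counts as in WT RAS. In sum 62.9% were called in DKO RAS, against 25.7% of all genes. Col1a1, the main chain of type I collagen (ENSMUSG00000001506.10, chr11:94936224-94953042), stood at 16281, 13348 and 11844 CPM in WT EV and at 2041, 2893 and 3465 CPM in DKO RAS. The log2 fold change was -2.30 ± 0.26 (adjusted p = 3.79e-04), and WT EV held 4.94 times the mean level of DKO RAS. Also lower were Col1a2 (-1.89 ± 0.31), the type III collagen gene Col3a1 (-2.24 ± 0.46) and the fibril-regulating Col5a2 (-2.28 ± 0.24). Col8a2 (-4.49 ± 0.94) and Col14a1 (-3.51 ± 0.65), minor fibroblast collagens, fell further. Of the members that rose, Col18a1, whose C-terminal fragment is endostatin, went from 61.5, 77.6 and 47.2 CPM to 215, 320 and 248 CPM (2.07 ± 0.26, adjusted p = 7.56e-04), and Col7a1, the anchoring fibril collagen gene, went from 5.68, 25.5 and 50.3 CPM to 161, 120 and 78.8 CPM (2.14 ± 0.58, adjusted p = 0.0238). The call of Col7a1 was lost without WT EV replicate 2, DKO RAS replicate 1 or DKO RAS replicate 2. Of 28 genes that modify and crosslink collagen, 13 fell and 1 rose, in sum 50% against 25.7% of all genes. Those that fell include the chaperone gene Serpinh1 (-1.08 ± 0.21), the crosslinking enzyme gene Lox (-1.64 ± 0.27), and the propeptidase genes Adamts2 (-2.47 ± 0.45) and Adamts3 (-3.06 ± 0.45). Bmp1, encoding the C-propeptidase, was the member that rose (0.59), and none rose without WT EV replicate 1 or 2 or DKO RAS replicate 1 or 2.

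Small leucine-rich proteoglycans, which bind collagen fibrils, fell in 7 of 11 tested cases and rose in 0, against 12.6% and 13.1% of all genes. Their median was -2.49. With at least 10 counts required in every library, 4 fell. Fmod did not meet the count minimum in every DKO RAS library. Fmod, encoding fibromodulin (ENSMUSG00000041559.7, chr1:134037254-134048280), was at 165, 134 and 57.3 CPM in WT EV and at 0.0991, 1.22 and 3.61 CPM in DKO RAS (-6.13 ± 0.67, adjusted p = 3.42e-04). Its highest DKO RAS library was thus far below its lowest WT EV library. The genes of asporin (Aspn, -3.18 ± 0.48), prolargin (Prelp, -2.94 ± 0.62), osteoglycin (Ogn, -2.49 ± 0.52) and biglycan (Bgn, -0.76 ± 0.19) fell too. The call of Bgn was lost without WT EV replicate 2. Dcn, encoding decorin, was at 560, 89.1 and 77.5 CPM in WT EV and at 196, 126 and 180 CPM in DKO RAS. WT EV replicate 1 alone lay above the DKO RAS libraries, and the fitted change was -0.53 with it and 1.00 without it (adjusted p = 0.579 with all libraries).

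Of 63 tested matricellular, elastic fibre and basement membrane genes 27 fell and 10 rose, in sum 58.7% against 25.7% of all genes. Of those that rose, Has3 met the count minimum for testing only through the RAS libraries. Among those that fell, Comp did not meet it in every DKO RAS library. Eln, encoding elastin, was at 1516, 152 and 172 CPM in WT EV and at 2.38, 13.0 and 24.7 CPM in DKO RAS (-5.51 ± 1.07, adjusted p = 0.00542). Comp, the cartilage oligomeric matrix protein gene, was at 72.7, 32.8 and 14.5 CPM in WT EV and at 0, 0.203 and 2.08 CPM in DKO RAS (-5.64 ± 0.91, adjusted p = 0.00227). Both genes were spread widely within WT EV, yet no DKO RAS library reached a WT EV library. The periostin gene Postn (-3.20 ± 0.62) and the microfibril gene Fbn1 (-1.31 ± 0.19) fell as well. Against this direction, Spp1, encoding the secreted phosphoprotein osteopontin, rose from 804, 3660 and 5754 CPM to 19683, 27907 and 23543 CPM (2.80 ± 0.58, adjusted p = 0.00743). The integrin ligand gene Npnt rose by 2.75 ± 0.23 and the hyaluronan synthase gene Has2 by 2.06 ± 0.61, whose call was lost without WT EV replicate 2, WT RAS replicate 2 or DKO RAS replicate 1 or 2. Has3 was at the floor of 3 counts in all WT EV libraries and at least 3.10 higher on the log2 scale in DKO RAS, at 1.26 to 3.37 CPM. The number of members that rose was 5 without WT EV replicate 2, 6 without DKO RAS replicate 2 and 16 without WT EV replicate 3.

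**Figure D3:**
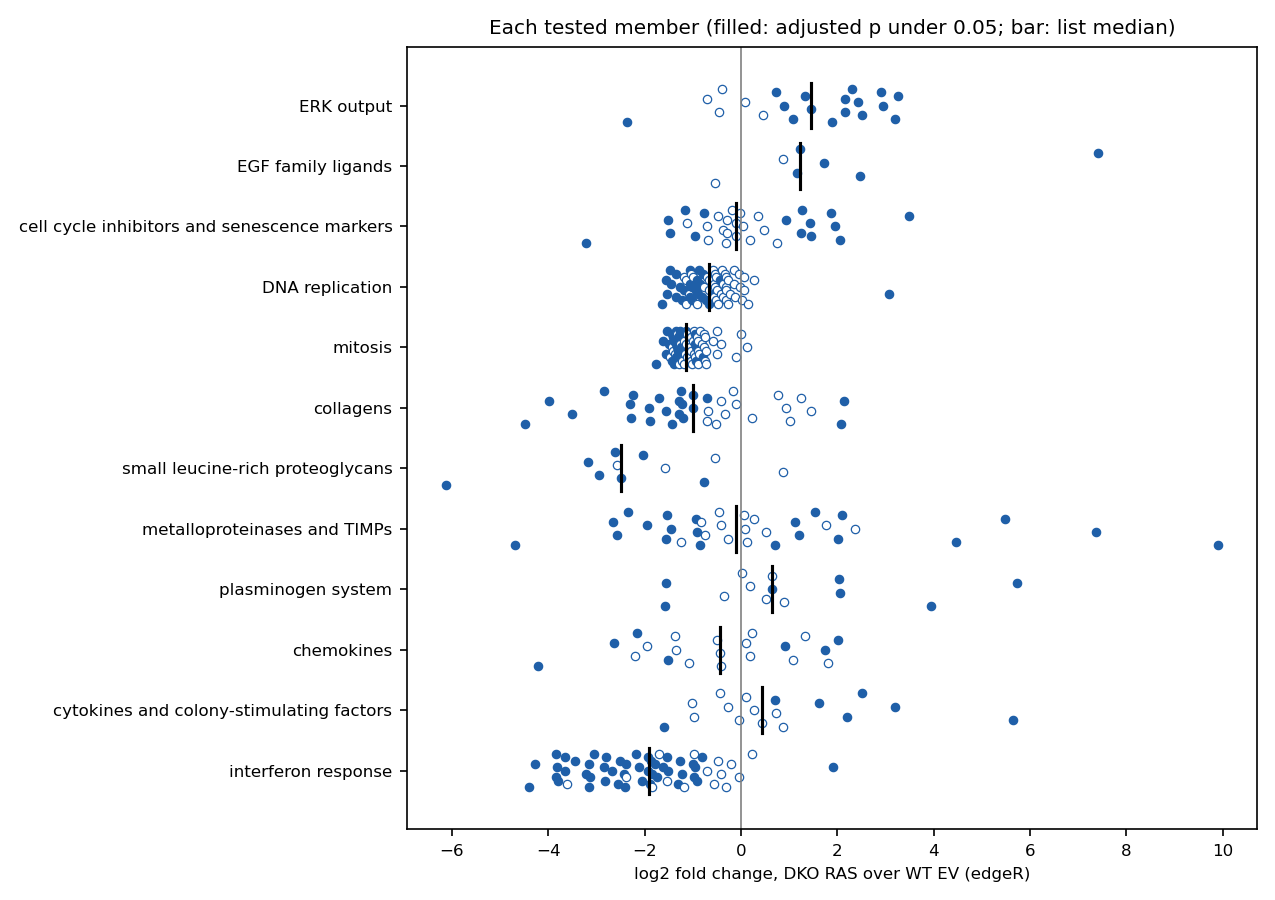
Each point is 1 tested member of a list, placed by its log2 fold change in DKO RAS over WT EV (x axis), filled where it was called, with the list's median as a bar. For 5 points a group was at the floor of 3 counts, so their fitted value depends on the prior count. Matrix and division genes lie mostly left of 0, while metalloproteinases spread from below -4 to Mmp10 at 9.91.

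Matrix-degrading enzymes moved in both directions. In WT RAS, 11 of the 34 tested metalloproteinases and their inhibitors rose and 11 fell. In DKO RAS 10 rose and 11 fell, in sum 61.8% against 25.7% of all genes. Of those that rose, Mmp10, Mmp1a and Mmp1b met the count minimum for testing only through the RAS libraries. With at least 10 counts required in every library, 6 rose. Mmp10, encoding stromelysin 2 (ENSMUSG00000047562.3, chr9:7502342-7510242), was at 0.0873, 0.265 and 0.962 CPM in WT EV and at 628, 419 and 256 CPM in DKO RAS (9.91 ± 0.61, adjusted p = 2.80e-05). Mmp3, encoding stromelysin 1 (ENSMUSG00000043613.8, chr9:7445822-7455975), was at 63.9, 69.1 and 72.6 CPM in WT EV and at 1099, 1650 and 1788 CPM in DKO RAS (4.46 ± 0.31, adjusted p = 4.28e-05). Both stromelysin genes stood far above every WT EV library in each DKO RAS library. The interstitial collagenase genes Mmp1a and Mmp1b were at the floor in WT EV and reached 51.4, 15.4 and 12.1 CPM and 9.51, 3.35 and 4.51 CPM in DKO RAS, at least 6.64 and 4.46 higher on the log2 scale. As Mmp1a and Mmp1b are near copies of each other, reads may have been split between them. Mmp13, the third collagenase gene, was at 3.14, 29.5 and 59.7 CPM in WT EV and 74.0, 103 and 136 CPM in DKO RAS without passing the test (1.76 ± 0.69, adjusted p = 0.0863). Mmp9, a gelatinase gene, was at 0.524 to 5.76 CPM in WT EV and 7.0 to 16.7 CPM in DKO RAS (adjusted p = 0.0662).

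Other members called included the membrane-anchored Adam8, which rose (1.54, adjusted p = 0.00302). Members that fell include Mmp14, the membrane-type collagenase gene (-0.91 ± 0.13), Timp3, the matrix-bound inhibitor gene (-1.56 ± 0.22), and the aggrecanase gene Adamts5 (-2.57 ± 0.31). Mmp2, the other gelatinase gene, was at 3499, 1291 and 1469 CPM in WT EV and 461, 1062 and 1114 CPM in DKO RAS (-1.25 ± 0.41, adjusted p = 0.0506). The soluble inhibitor gene Timp1 rose by 1.13 ± 0.29, a call lost without WT EV replicate 2 or DKO RAS replicate 1. The number of members that rose was 6 without WT EV replicate 2, DKO RAS replicate 1 or DKO RAS replicate 2.

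Of the 8 members of this list that rose and have a promoter in the RefSeq table, 6 hold an AP-1 site (TGACTCA or its reverse complement TGAGTCA), against 5.95% of all genes with a promoter, 8.28% of those that rose and 5.03% of those that fell. They are Mmp1a, Mmp1b, Mmp3, Mmp10, Mmp12 and Adam19, of which the calls of Mmp12 and Adam19 were lost without WT EV replicate 2. Mmp1a, Mmp1b and Mmp10 met the count minimum for testing only through the RAS libraries, so this share is not read as a result. Mmp13, which was not called, also holds the site. None of the 7 members that fell holds it. The promoters of the stromelysin and interstitial collagenase genes, all of 1 cluster on chromosome 9, are shown with the AP-1 site in capitals.
Mmp10, chr9:7502092-7502391, plus strand: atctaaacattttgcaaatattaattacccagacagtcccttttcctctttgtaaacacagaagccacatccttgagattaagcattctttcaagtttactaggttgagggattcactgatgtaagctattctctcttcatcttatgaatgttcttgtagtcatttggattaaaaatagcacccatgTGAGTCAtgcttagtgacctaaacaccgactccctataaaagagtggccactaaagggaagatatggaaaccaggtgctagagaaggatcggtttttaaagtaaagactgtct
Mmp3, chr9:7445572-7445871, plus strand: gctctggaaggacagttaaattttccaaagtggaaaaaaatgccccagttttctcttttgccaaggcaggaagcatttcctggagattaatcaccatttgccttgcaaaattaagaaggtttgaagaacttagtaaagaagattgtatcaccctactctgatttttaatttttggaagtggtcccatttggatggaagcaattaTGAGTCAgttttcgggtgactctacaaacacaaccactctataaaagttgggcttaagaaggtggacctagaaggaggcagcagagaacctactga
Mmp1a, chr9:7463891-7464190, plus strand: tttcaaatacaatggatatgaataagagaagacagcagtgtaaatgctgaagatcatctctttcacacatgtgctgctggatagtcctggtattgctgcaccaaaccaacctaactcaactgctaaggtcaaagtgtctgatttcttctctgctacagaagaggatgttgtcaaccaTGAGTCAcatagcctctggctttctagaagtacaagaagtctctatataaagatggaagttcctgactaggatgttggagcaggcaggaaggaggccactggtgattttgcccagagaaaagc
Mmp1b, chr9:7387977-7388276, minus strand: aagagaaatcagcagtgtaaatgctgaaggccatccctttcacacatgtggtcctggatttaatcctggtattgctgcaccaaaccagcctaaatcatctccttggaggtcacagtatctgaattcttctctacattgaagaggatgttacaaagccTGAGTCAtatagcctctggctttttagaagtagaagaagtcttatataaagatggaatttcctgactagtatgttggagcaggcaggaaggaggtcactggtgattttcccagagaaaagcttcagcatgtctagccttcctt
Each holds 1 site, and counted from the gene's start its first base is at -63 in Mmp10, -46 in Mmp3, -73 in Mmp1a and -93 in Mmp1b. Fosl1, the AP-1 subunit described above, rose in the same libraries. Whether it was bound there was not measured.

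Plasminogen activation, another route of matrix breakdown, gave 5 genes that rose and 2 that fell among 13 tested. In sum 53.8% were called, against 25.7% of all genes. Plau, encoding urokinase, was at 61.7, 40.7 and 108 CPM in WT EV and at 2008, 680 and 576 CPM in DKO RAS (3.96 ± 0.55, adjusted p = 0.00114). Its receptor gene Plaur rose as given above, and so did its inhibitor gene Serpinb2, encoding PAI-2, by 5.73 ± 0.61. DKO RAS replicate 1 was the highest library for both Plau and Serpinb2. The number of members that rose was 3 without WT EV replicate 2.

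Of 21 tested chemokine genes 3 rose and 4 fell in DKO RAS, shares near the 13.1% and 12.6% of all genes, and 5 rose and 4 fell in WT RAS. Ccl2, encoding the monocyte attractant MCP-1 (ENSMUSG00000035385.5, chr11:82035577-82037452), was at 38.2, 16.9 and 37.3 CPM in WT EV and at 125, 71.2 and 114 CPM in DKO RAS (1.75 ± 0.32, adjusted p = 0.00412). Ccl2 in WT RAS had 141, 94.9 and 123 CPM (1.96). Ccl8 and Ccl25 also rose, by 2.01 ± 0.64 and 0.92 ± 0.25, but both calls were lost without WT EV replicate 1 or 2, among others. Ccl7, the neighbour of Ccl2 in its cluster, was at 14.8, 37.8 and 60.4 CPM in WT EV and 61.3, 69.8 and 109 CPM in DKO RAS (1.09 ± 0.41, adjusted p = 0.0784). In WT RAS it rose by 1.40 (adjusted p = 0.0331), but Ccl7 was not called between DKO RAS and WT RAS. Cxcl12, a chemokine of resting stroma, fell from 2983, 2093 and 2031 CPM to 183, 327 and 631 CPM (-2.64 ± 0.39, adjusted p = 0.00156). Cxcl14 (-2.16 ± 0.49) and Cxcl15 (-4.21 ± 0.69) fell as well. Cxcl1, a neutrophil attractant, was at 3.93, 19.2 and 10.8 CPM in WT EV and 2.38, 4.66 and 6.32 CPM in DKO RAS, and the groups overlapped (-1.34 ± 0.56, adjusted p = 0.106). The number of chemokine genes that rose was 1 without WT EV replicate 1 or 2 or DKO RAS replicate 2 or 3.

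Markers of macrophages, another cell type that such cultures can hold, were read beside these lists. Of the 26 listed, 21 to 25 were above 1 CPM in WT EV and 13 to 23 in DKO RAS. Their summed level was 1994, 220 and 291 CPM in WT EV, 1328, 232 and 347 CPM in WT RAS and 341, 100.7 and 130 CPM in DKO RAS. None of the 24 tested was called, with a median log2 fold change of -2.73. The defining gene Csf1r was at -3.16 (adjusted p = 0.0707). Replicate 1 of each group held the highest level. In S6K1 KO RAS against its own WT EV 7 of the 24 were called lower, with a median of -2.22. The part of these cells in the chemokine, complement and interferon values was not tested.

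Cytokine genes rose in 6 of 17 tested cases and fell in 1, in sum 41.2% against 25.7% of all genes. Of those that rose, Tslp met the count minimum for testing only through the RAS libraries. The largest increase was that of Tslp, encoding an epithelial-derived cytokine that acts on dendritic cells, which stood at 1.92, 1.5 and 0.612 CPM in WT EV and at 60.7, 96.9 and 45.5 CPM in DKO RAS (5.64 ± 0.55, adjusted p = 2.16e-04). Of the IL-6 family, Lif rose by 3.20 ± 0.31 and Il11 by 2.52 ± 0.25. Il6 itself was at 0.524, 0.354 and 4.11 CPM in WT EV and at 0.991, 0.710 and 0.812 CPM in DKO RAS (-0.98 ± 0.90, adjusted p = 0.449). Without WT EV replicate 3, which held the highest level, its fitted change was 0.92. Il1a and Il1b, the interleukin 1 genes that drive inflammatory secretion in many senescent cells, were not tested for low counts, with at most 0.198 CPM in any of the 6 libraries. Il33, an alarmin gene, rose by 2.19 ± 0.55 and Il18 fell by 1.60 on the log2 scale (SE 0.51). The call of Il33 was lost without WT EV replicate 2 or DKO RAS replicate 3, and that of Il18 without any of 6 libraries.

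Of 14 tested genes of prostaglandin synthesis 6 rose and 2 fell, in sum 57.1% against 25.7% of all genes. Ptgs2, encoding cyclooxygenase 2 (ENSMUSG00000032487.8, chr1:150100031-150108234), was at 12.3, 27.0 and 55.9 CPM in WT EV and at 749, 366 and 339 CPM in DKO RAS (3.93 ± 0.53, adjusted p = 0.00102). Ptges, the prostaglandin E synthase gene next in the route, was at 8.56, 24.2 and 21.2 CPM in WT EV and 90.9, 90.1 and 100.98 CPM in DKO RAS (2.38 ± 0.33, adjusted p = 0.00110). No DKO RAS library of either gene came near a WT EV library. Ptgs1, encoding the constitutive cyclooxygenase 1, rose by 1.64, and so did Pla2g7, a lipoprotein-associated phospholipase gene (2.53 ± 0.47), and Pla2g4a, encoding cytosolic phospholipase A2 (0.87). The secreted phospholipase gene Pla2g2e fell, with a log2 fold change of -2.46 (adjusted p = 0.0121). The calls of Pla2g4a and Pla2g2e were lost without DKO RAS replicate 2. Hpgd, which encodes the enzyme that inactivates prostaglandins, fell by 1.60 on the log2 scale (SE 0.52), but its groups overlapped and its call was lost without any single library other than WT EV replicate 3. Of the 2 members that fell, none was called lower without DKO RAS replicate 2, and 1 without any other library but WT EV replicate 3.

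Secreted growth factors were split. Among 39 tested growth factor and IGF-binding protein genes 6 rose and 9 fell, in sum 38.5% against 25.7% of all genes. Fgf2 was at 58.7, 71.4 and 71.3 CPM in WT EV and at 395, 372 and 320 CPM in DKO RAS (2.43 ± 0.16, adjusted p = 3.39e-05). The angiogenic factor genes Pgf and Vegfa rose by 3.30 ± 0.30 and 0.89 ± 0.16, and the neurotrophin gene Bdnf by 1.93 ± 0.32. Ptn, encoding pleiotrophin, fell from 2234, 764 and 490 CPM to 24.4, 40.4 and 74.3 CPM (-4.65 ± 0.63, adjusted p = 9.95e-04). Igf1 fell (-1.90 ± 0.32), as did the IGF carrier gene Igfbp2 (-2.54 ± 0.71), a call lost without WT EV replicate 1 or 2 or DKO RAS replicate 1 or 2. Igfbp3 was at 2076, 1735 and 1796 CPM in WT EV and 1553, 1702 and 1342 CPM in DKO RAS (-0.29 ± 0.20, adjusted p = 0.309). In WT RAS its change was -0.64 (adjusted p = 0.0403), but Igfbp3 was not called between DKO RAS and WT RAS.

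In the TGF-beta family 8 of 32 tested ligand and antagonist genes rose and 6 fell, in sum 43.75% against 25.7% of all genes. The activin subunit genes Inhba and Inhbb rose by 1.68 ± 0.38 and 2.91 ± 0.62. Grem1, encoding a secreted BMP antagonist, was at 310, 558 and 701 CPM in WT EV and at 3317, 2690 and 2036 CPM in DKO RAS (2.36 ± 0.32, adjusted p = 0.00107), and the ligand gene Bmp6 rose by 2.33 ± 0.43. Tgfb2 fell by 3.47 on the log2 scale (adjusted p = 4.07e-04). Contractile genes, many of them TGF-beta targets in fibroblasts, gave 4 that rose and 2 that fell among 25. In sum 24% of this list was called, near the 25.7% of all genes. Acta2, smooth muscle actin, was at 743, 1080 and 2915 CPM in WT EV and 1848, 1199 and 1304 CPM in DKO RAS (-0.12 ± 0.48, adjusted p = 0.873), and without WT EV replicate 3 its fitted change was 0.68. Tpm1 rose by 1.02 ± 0.23 and Pdlim3 by 2.52 ± 0.39, and Mylk, the myosin light chain kinase gene, fell by 2.15 on the log2 scale (SE 0.45). Contractile genes that rose numbered 12 without WT EV replicate 3 and 2 without any other library, and 5 fell without WT EV replicate 1.

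Interferon-response genes had the largest share of members called lower among the gene lists plotted above. Of 60 tested members 44 fell and 1 rose, in sum 75% against 25.7% of all genes. The median was -1.90. Ifit1, which binds viral RNA (ENSMUSG00000034459.8, chr19:34640889-34650009), was at 65.2, 195 and 127 CPM in WT EV and at 5.65, 3.75 and 10.5 CPM in DKO RAS (-4.27 ± 0.97, adjusted p = 0.0116). The WT RAS libraries held 98, 9.17 and 8.15 CPM of Ifit1. Isg15, a ubiquitin-like modifier, was at 42.4, 94.2 and 59.1 CPM in WT EV, at 3.96, 3.14 and 8.21 CPM in DKO RAS and at 79.2, 8.69 and 6.76 CPM in WT RAS. WT RAS replicate 1 thus lay with WT EV, while WT RAS replicates 2 and 3 lay near DKO RAS. Mx1 (-4.41 ± 1.05), Oasl2 (-3.84 ± 0.80), the transcription factor gene Irf7 (-2.51 ± 0.67) and the antigen-processing gene Tap1 (-0.92 ± 0.22) fell. Nlrc5, a transactivator of MHC class I genes, was the member that rose, from 6.55, 6.10 and 7.08 CPM to 27.6, 17.1 and 29.2 CPM (1.90 ± 0.29, adjusted p = 0.00182).

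In WT RAS against WT EV 8 of the 60 fell and 1 rose, with a median of -0.93. Between DKO RAS and WT RAS the median was -1.07 and none was called, and 25 had an unadjusted p under 0.05, against 179 of all 13881 genes. The members called lower numbered 21 without DKO RAS replicate 1 and 17 without DKO RAS replicate 2. Without DKO RAS replicate 2 the calls of Ifit1, Mx1, Isg15, Irf7 and Tap1 were lost. WT EV replicate 1, which held the highest macrophage level, was the lowest WT EV library for Ifit1, Isg15 and Irf7. WT RAS replicate 1, with the highest macrophage level of WT RAS, was the highest WT RAS library for Ifit1 and Isg15. The part of macrophages in these values was not tested.

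**Figure D4:**
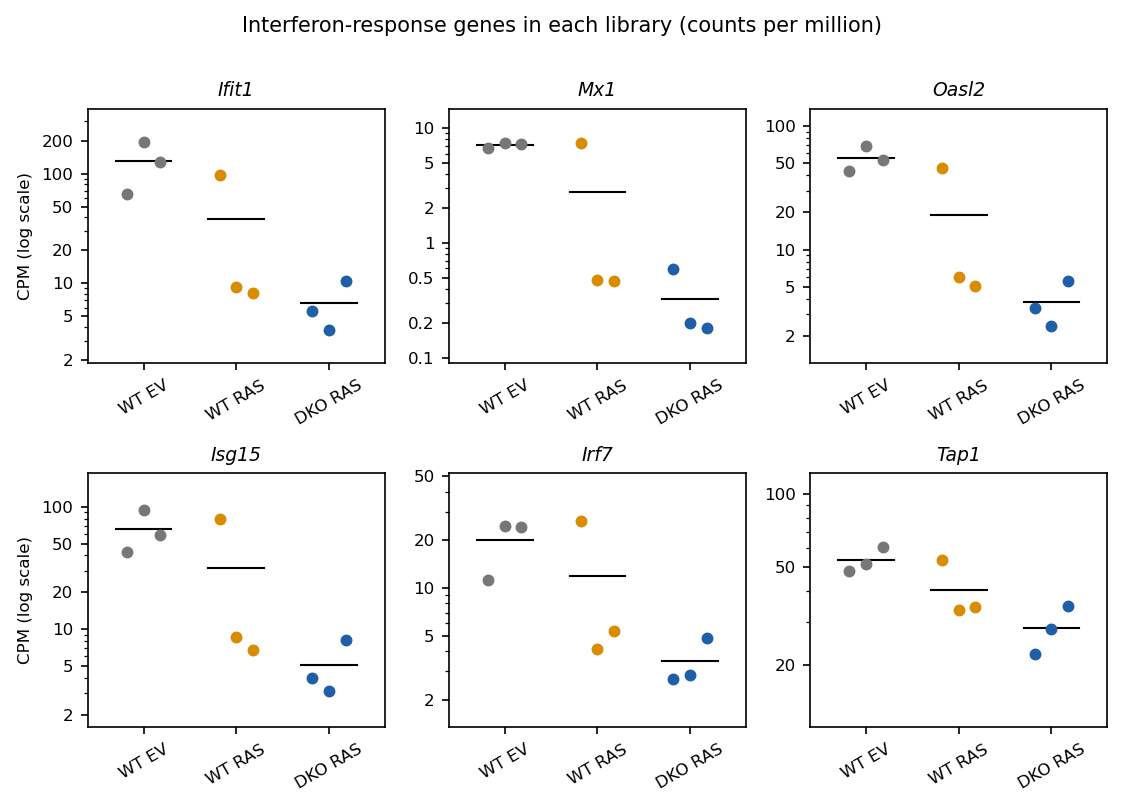
Values of 6 interferon-response genes are plotted as CPM on a log axis in each library (points, replicates 1 to 3 from left to right) with the mean of each group (bar). WT RAS replicate 1 lies within or above the range of WT EV in all 6 panels, for Ifit1 at 98 CPM, and DKO RAS libraries lie below all WT EV libraries.

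Of 16 tested complement genes 4 fell and 1 rose, in sum 31.25% against 25.7% of all genes. C3 was at 34.4, 2.83 and 3.32 CPM in WT EV and at 0.595, 0.507 and 1.8 CPM in DKO RAS (-3.77 ± 1.07, adjusted p = 0.0285), and its call was lost without WT EV replicate 1 or without DKO RAS replicate 1 or 2. C4b (-4.35 ± 0.72) and C1ra (-2.20 ± 0.49), genes of the classical pathway, fell. Masp1, a lectin pathway protease gene, rose by 1.33 ± 0.38, a call lost without WT EV replicate 2 or any DKO RAS library. Without DKO RAS replicate 1 or 2 the number that fell was 2.

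Of 10 listed epithelial markers 5 passed the filter on low counts and 5 did not. Those that passed were called higher, but Cldn4, Epcam, Krt8 and Krt18 passed it only through the RAS libraries, so their count is not read as a result. The summed level of the list was 9.69, 8.05 and 11.4 CPM in WT EV, 211, 127 and 88.5 CPM in DKO RAS and 145 to 175 CPM in WT RAS. Cldn4, a tight junction gene, was at 0, 0 and 0.437 CPM in WT EV and at 33.9, 19.7 and 9.30 CPM in DKO RAS (7.05 ± 0.80, adjusted p = 4.36e-04). Krt18, a simple epithelial keratin gene, was at 0.349, 1.24 and 3.50 CPM in WT EV and 123, 76.9 and 55.8 CPM in DKO RAS (5.64 ± 0.56, adjusted p = 2.26e-04). Epcam and Krt8 were at the floor in WT EV and at least 2.49 and 3.27 higher on the log2 scale. The markers of skeletal muscle summed to 5.94 to 26.8 CPM in WT EV and 68.3 to 130 CPM in DKO RAS, and neural markers to 98.6 to 194 CPM and 243 to 587 CPM.

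S6 kinases are known for their part in translation, ribosome production and the synthesis of lipids and nucleotides. Of 76 tested genes of cytoplasmic ribosomal proteins 1 rose and 1 fell (median 0.12), and of 58 genes of ribosome biogenesis 3 rose and 3 fell (median 0.10), shares below those of all genes. Sterol and fatty acid synthesis gave 2 that rose and 3 that fell of 33, and purine and pyrimidine synthesis 3 and 1 of 26. In sum these were 15.2% and 15.4%, against 25.7% of all genes. None of the biogenesis genes rose without WT EV replicate 2 or DKO RAS replicate 1 or 2, 7 sterol and fatty acid genes rose without WT EV replicate 1, and 5 purine and pyrimidine genes rose without WT EV replicate 3. Of 26 genes of S6 kinases, mTORC1 and kinase substrates 3 rose and 4 fell, near the 25.7% of all genes in sum. Besides Rps6kb1 and Rps6kb2, the mTOR inhibitor gene Deptor fell from 73.2, 42.9 and 14.5 CPM to 6.74, 7.91 and 7.49 CPM (-2.56 ± 0.46, adjusted p = 0.00400), and Eef2k, the elongation factor kinase that S6K1 inhibits, fell by 0.95 on the log2 scale (SE 0.11). Rps6ka2, encoding the p90 kinase RSK3, rose from 8.03, 7.34 and 15.6 CPM to 69.5, 35.5 and 35 CPM (2.17 ± 0.34, adjusted p = 0.00206). Mtor (0.85 ± 0.22) and Eif4ebp1 (0.63 ± 0.18) rose, but both calls were lost without WT EV replicate 2, DKO RAS replicate 1 or DKO RAS replicate 2, which left 1 member that rose.

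Where the 6 libraries averaged 100 counts or more and the groups did not overlap, the genes with the highest log2 fold change included Mmp10, Areg, Mmp1a and Cldn4, described above. Csn3, the milk protein kappa-casein gene, had 0 counts in all WT EV libraries and stood at 136, 61.8 and 25.4 CPM in DKO RAS, at least 8.15 higher on the log2 scale. In WT RAS Csn3 was at 11.3, 33.5 and 113 CPM. Gm13847, a predicted gene, was at the floor in WT EV and at least 6.20 higher. Atg9b, an autophagy gene, rose by 6.82 ± 0.40, and Angptl7, encoding a secreted angiopoietin-like protein, rose from 6.20, 18.4 and 28.1 CPM to 1377, 1410 and 1100 CPM (6.21 ± 0.49, adjusted p = 1.03e-04). Those with the lowest values were Fmod, Comp, Eln and Ptn, described above, and Lypd1 (-5.94 ± 0.81), Clec11a (-5.36 ± 0.96), Lrrtm3 (-5.25 ± 0.87) and Abi3bp (-4.72 ± 0.82). Clec11a, a secreted bone growth factor gene, was at 75.0, 54.4 and 5.16 CPM in WT EV and at 0.198, 0.912 and 2.08 CPM in DKO RAS.

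Set directly against WT RAS, DKO RAS differed in 3 of 13881 genes (0.0216%), and 179 had an unadjusted p under 0.05. DESeq2 called 10 genes and gave 204 with an unadjusted p under 0.05. Those lower (0.0144%) were Rps6kb2 (-3.18 ± 0.17, adjusted p = 7.44e-05) and Rps6kb1 (-1.11 ± 0.11, adjusted p = 0.00908), and the 1 higher (0.0072%) was ENSMUSG00000093483, a gene with no symbol in the tables used. It stood at 0.648, 0.476 and 0.741 CPM in WT RAS and at 4.56, 6.69 and 6.05 CPM in DKO RAS (adjusted p = 0.0491). The number was 1 without WT RAS replicate 2 or 3 or without any DKO RAS library. The 95% interval of the DKO RAS minus WT RAS difference was -0.38 to 0.35 for Dusp6, -0.34 to 0.57 for Areg, -0.40 to 0.43 for Cdkn2a, -0.48 to 0.54 for Cdkn2b, -0.97 to 0.77 for Mki67, -0.79 to 0.30 for Col1a1, -0.61 to 1.06 for Mmp10, -0.11 to 1.08 for Mmp3 and -0.89 to 0.48 for Ccl2. Over all genes this interval, which is not adjusted for the number of genes, reached a median of 0.47 to either side of the difference. A gene that was not called here is not shown to be alike in both genotypes.

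A separate series gave an independent set of libraries. There, S6K1 KO RAS against its own WT EV called 2542 of 14036 genes (18.1%), 1341 higher (9.55%) and 1201 lower (8.56%). The methods give its WT and KO cells as littermates, and its same-numbered libraries deviated together. That equal numbers mark littermates is inferred from this and not stated in the labels. With the number as a block 5766 genes were called (41.1%, 2905 or 20.7% higher and 2861 or 20.4% lower). The count without the block was 1499 without its WT EV replicate 2 and 1325 without S6K1 KO RAS replicate 2. Both series tested 13550 genes, of which 3473 were called in DKO RAS and 2449 in S6K1 KO RAS, and 1738 in both, which is 50.04% of the former and 71.0% of the latter. Of these, 1737 had the same direction, 992 higher and 745 lower. With the block, 2696 were called in both (77.6% of the DKO RAS calls and 48.8% of the S6K1 KO RAS calls) and 2685 had the same direction. Across the 13550 genes, which are not independent, Pearson's r of the log2 fold changes was 0.852 and Spearman's rho was 0.748. Of 1782 genes that rose in DKO RAS 1721 were higher in S6K1 KO RAS, and of 1691 that fell 1629 were lower.

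**Figure D5:**
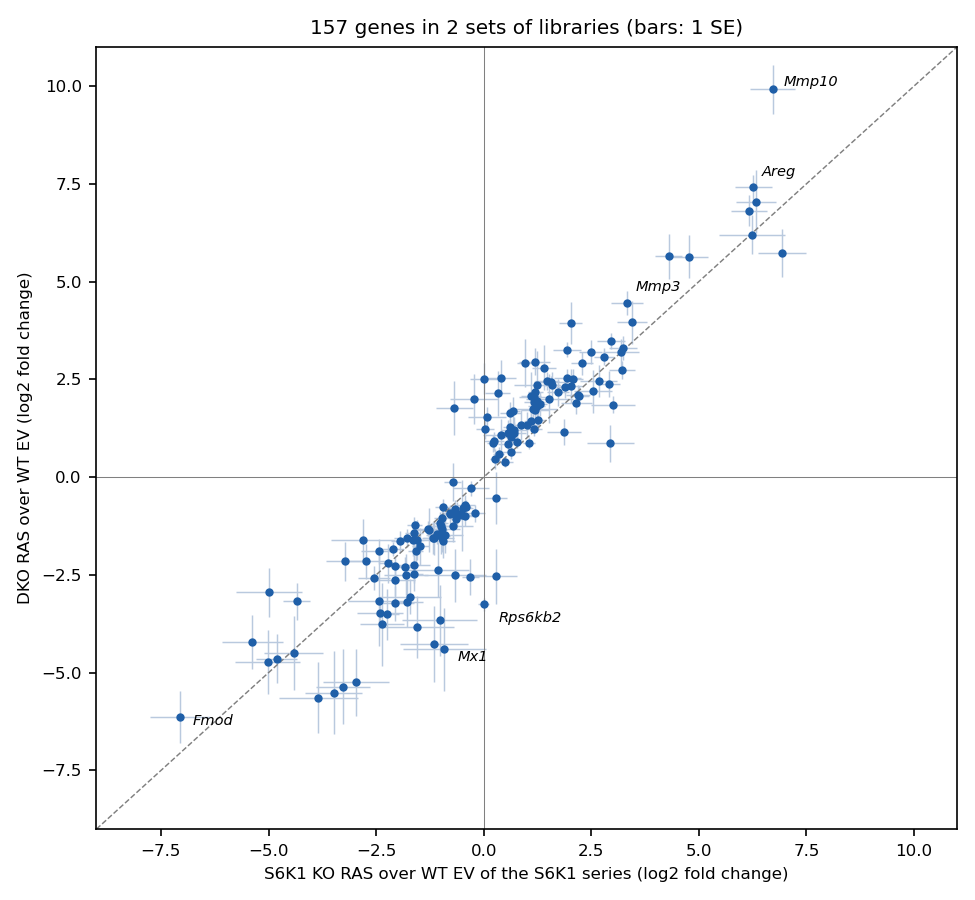
Log2 fold changes of the S6K1 KO RAS comparison (x axis) and of DKO RAS over WT EV (y axis) for the described genes with no group of the DKO RAS comparison at the floor, with 1 SE as bars and the line of equal change dashed. Rps6kb2 lies near 0 on the x axis and -3.25 on the y axis, and Mx1 lies at -0.92 and -4.41.

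S6K1 KO RAS had 15 ERK output genes higher and 1 lower of those tested, 15 collagens lower and 2 higher, and 7 small leucine-rich proteoglycans lower. Areg was at 6.27, Mmp10 at 6.72, Mmp3 at 3.33, Cdkn2a at 1.17, Cdkn2b at 1.11, Col1a1 at -1.84 and Fmod at -7.05 there, all called. Mitosis genes called lower numbered 45 without the block and 68 with it, and replication genes 15 and 35. Of the interferon list 2 members were called lower in S6K1 KO RAS without the block and 29 with it, with a median of -0.70. Ifit1 was at -1.16 (adjusted p = 0.360 without the block and 0.0152 with it) and Mx1 at -0.92 (0.572 and 0.230). Ribosomal protein genes called higher numbered 1 without the block and 39 with it. Of 24 macrophage markers tested there, 7 were called lower without the block and 23 with it. The difference between the effects of both series, tested gene by gene over all 18 libraries, was called for Rps6kb2 alone (1 of 14483, 0.0069%), with 1092 genes at an unadjusted p under 0.05. DESeq2 called 61, and a fit with the replicate block called 22. It was called for 71 genes without WT EV replicate 3 and 17 without replicate 3 of the other WT EV group. The series and the day or batch of culture cannot be told apart in that difference.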

How the data were processed

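RNA-seq was measured in 18 MEF cultures, of which 6 are compared here. Per the labels and methods, libraries were made with a stranded poly(A) kit and read single-end. The authors deposited 1 table of raw read counts per gene, not normalised. The methods name TopHat, HTSeq and mm9, while the submitters' processing notes name STAR 2.7.1a, DESeq2 1.28.1 and mm10, so which made the table is not settled here. Gene positions and promoters are from RefSeq (GRCm38.p6), matched by symbol. Of the tested genes 94.6% had a symbol and 74.2% a promoter.

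The counts were fitted with edgeR 4.0.16 (R 4.3.3, limma 3.58.1; TMM scaling, filterByExpr with a count minimum of 10, quasi-likelihood test, Benjamini-Hochberg adjustment, threshold 0.05) over the 9 libraries of the S6K1/S6K2 series with group as the only term. Levels are TMM-scaled CPM. Where a group was at 3 counts or fewer in every library, the difference is a bound computed against that floor, which covers counting error only. The 3 samples of a group came from different embryos. Members and gene lists were chosen with earlier results of these data known. Named genes were a fixed set, up to 8 genes at either end of the fold change that averaged 100 counts or more and whose groups did not overlap, up to 3 called members at either end of each list, and members with a textbook role. Figures were drawn with matplotlib. The fit was also run on simulated counts drawn without a replicate effect, which therefore do not measure its error rate in these data.

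Alternatives were DESeq2 1.42.0, other scalings and filters, the 6 libraries alone, all 18 libraries, the replicate number as a block, and leaving out each library. A fit on replicates 2 and 3 only was chosen after seeing the data. In the S6K1 series the deviations of same-numbered samples from the group means correlated at 0.646, 0.489 and 0.510. The block is therefore given there too, with the pairing by number inferred from these data. Some genes of the lists are counted but not reported here by name.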

Additional observations from a re-analysis of the deposited data

Results flagged for a closer look

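Rps6kb2 was the 1 gene for which the change in DKO RAS over WT EV and the change in S6K1 KO RAS over its own WT EV were called as different. These log2 fold changes were -3.25 and -0.0032, and their difference by an interaction term over all 18 libraries was -3.23 ± 0.20 (SE, edgeR adjusted p = 5.10e-07). It is the gene deleted in one set of cells and present in the other, and its level in WT RAS was 24.1 to 28.9 CPM against 24.4 to 30.6 CPM in WT EV. The number of genes so called was 22 with the replicate block, 61 with DESeq2, 71 without WT EV replicate 3 and 17 without replicate 3 of the WT EV group of the S6K1 series.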

How the results depend on the processing

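Of the comparison of DKO RAS with WT EV, the total called was 1999 to 4044 when 1 library was left out, 1149 to 2088 of them higher and 850 to 1956 lower. Mitosis genes called lower numbered 1 to 51 in those fits, 48 with DESeq2, 63 with no filter on low counts, 56 over all 18 libraries, 53 with replicates 2 and 3 only and 14 with the replicate block. Replication genes called lower numbered 4 to 31, interferon genes called lower 17 to 49, and metalloproteinases called higher 6 to 11 with 1 library left out. A minimum of 10 counts in every library left 6 metalloproteinases called higher and 4 small leucine-rich proteoglycans called lower, and no filter gave 11 of the latter. Genes called between DKO RAS and WT RAS were 10 with DESeq2, 8 with the replicate block and 1 to 2 with 1 library left out. WT RAS against WT EV gave 2050 to 4199 genes in such fits. S6K1 KO RAS gave 1325 to 2139, and 5766 with the replicate block. The difference between both effects was called for 1 to 71 genes with 1 library left out, 61 with DESeq2 and 22 with the replicate block. The cause of these shifts was not tested.

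Genes that were not called changed sign: Dcn went to 0.0029 with the replicate block and 0.88 with replicates 2 and 3 only, and from -0.95 to 1.00 with 1 library left out. Acta2 went to 0.0227 with the block and from -0.46 to 0.68, and Il6 from -1.46 to 0.92, with 1 library left out. No called gene named in the text changed sign under any alternative. Scalings left the median of all genes between -0.07 and 0. In the S6K1/S6K2 series same-numbered DKO RAS and WT EV libraries correlated at 0.194, 0.295 and -0.118, so the numbers did not pair these samples consistently. Replicate 1 of every group was still set apart on the second principal component. The block gave 3931 calls. WT EV and WT RAS libraries, whose labels share WT numbers, were not checked for pairing, and the block gave 3980 calls between them.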
